A study of Bos taurus and Bos indicus x Bos taurus with 938 samples.

Results

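Open chromatin was compared between 4-cell bovine embryos made by somatic cell nuclear transfer (SCNT) and 4-cell embryos made by in vitro fertilisation (IVF). The members were all blastomeres whose library title gave a cell number of 4, which came to 18.6% of the blastomeres in the deposited table. The SCNT group held 77 blastomeres of 25 embryos, with the organism label Bos taurus, and the IVF group held 75 blastomeres of 22 embryos, with the organism label Bos indicus x Bos taurus. Oocytes for both came from abattoir ovaries and were matured in vitro, and the IVF embryos were fertilised with cryopreserved semen. No source used here describes the donor cells of the SCNT embryos. The embryo was the replicate, and embryos are named here by type and the number in their labels, with a letter for the blastomere, as in IVF-552A.

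In SCNT the nucleus of a somatic cell is placed in an oocyte whose own nucleus has been removed, so a differentiated nucleus has to be reset by the oocyte's cytoplasm. In IVF the embryo starts from a sperm and an egg genome. At 4 cells the cleaving bovine embryo still runs largely on maternal RNA and protein, since the main wave of embryonic genome activation in cattle falls around the 8-cell stage. ATAC-seq marks open chromatin by where the Tn5 transposase can insert adapters, and in 1 cell each autosomal locus offers only a few DNA copies, so an open locus is often missed. Cleavage divisions in cattle are known for errors in which a blastomere gains or loses whole chromosomes.

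Columns of the table were tied to libraries by their numbering, which is an inference, since no source used here gives the link. Every SCNT library had the title prefix 15243 or 15244 and every IVF library 15286 or 15287. Embryo type, title prefix and breed label can therefore not be told apart in any result below. The table gives regions by running number only, from V1 to V302830, with no coordinates and no genes, so no sequence or annotation can be attached to them. Each value is 1 (open) or 0, and the number of open calls stands in for depth, which is unknown in reads. Of 99 SCNT and 84 IVF libraries labelled 4-cell, the remaining 22 and 9 had no column and were not analysed here. All 4 blastomeres were present for 13 SCNT and 16 IVF embryos.

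SCNT blastomeres had fewer open regions on average, but the difference did not pass once 7 measures were adjusted together. The lowest SCNT blastomere had 813 open calls, the median 4330 and the highest 43077. The lowest IVF blastomere had 630, the median 8030 and the highest 129163, so the SCNT range lay within the IVF range. Per embryo, the median log10 of the calls of its blastomeres was 3.62 ± 0.298 in SCNT (SD, n = 25) and 3.84 ± 0.423 in IVF (SD, n = 22), a 1.66-fold difference. The permutation test over embryos (two-sided) gave p = 0.0424 and a Benjamini-Hochberg adjusted p of 0.0989.

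**Figure D1:**
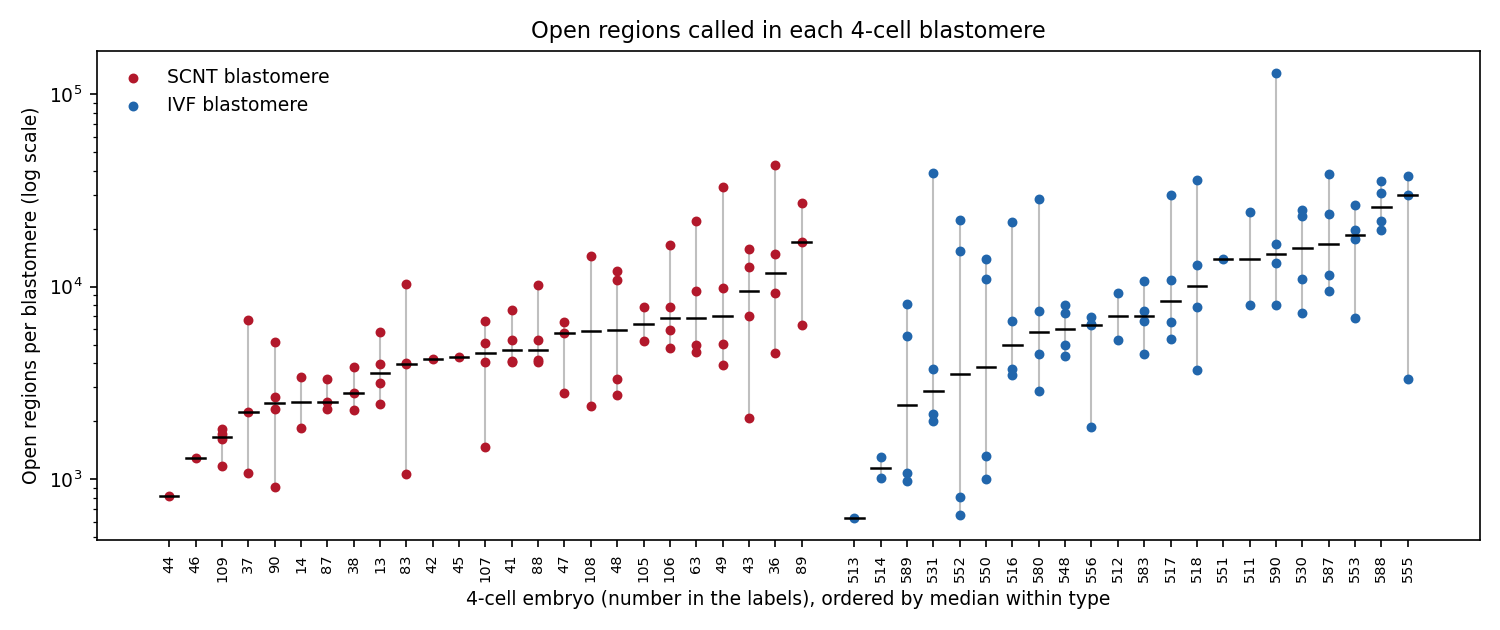
Open regions per blastomere (log axis) for every 4-cell embryo, ordered by median within type. Points are blastomeres, grey lines join the sisters of 1 embryo and black bars are the embryo medians. SCNT blastomeres run from 813 to 43077 and IVF blastomeres from 630 to 129163, and the widest spread among sisters is in IVF-552, where the ratio is 33.9.

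Sisters within an embryo differed widely in both types. The highest SCNT ratio between the most and the least open sister was 9.70, and the highest IVF ratio was 33.9. The SD of log10 calls among sisters was 0.269 ± 0.133 in SCNT (SD, n = 21) and 0.361 ± 0.196 in IVF (SD, n = 20), and this difference did not pass (permutation test, p = 0.085, adjusted p = 0.149). Since blastomeres of 1 embryo share their origin and handling, they were not used as separate replicates in any test.

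Regions close in the numbering tended to be open together, and this divided the numbering into 29 blocks, followed by a mixed segment without a single pattern and 2 short last blocks, called block 30 and block 31. The median correlation inside blocks 1 to 29 lay between 0.758 and 0.884, and the correlation across a boundary reached at most 0.240. The boundaries were set from blastomeres of all stages and both types. Cattle have 29 pairs of autosomes and a pair of sex chromosomes, but the table names no chromosome and the blocks are not assigned to any here. Relative coverage below is the number of open calls in a block divided by the number expected from the blastomere's total and the regions' overall frequency, set against the same ratio over blocks 1 to 29. A value of 1 is therefore the average, and in a blastomere with few calls in many blocks the remaining blocks rise above 1 by construction.

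Whole blocks had almost no open calls in close to every second IVF blastomere, and rarely in SCNT. A block with a relative coverage under 0.1 was called absent, in blastomeres with at least 2000 calls in blocks 1 to 29. Among 62 such IVF blastomeres, 30 lacked at least 1 block (48.4%, exact 95% interval 35.5 to 61.4). Among 58 SCNT blastomeres, 4 did (6.90%, 1.91 to 16.7). These intervals cover counting error only and treat sisters as independent. Per embryo, the percent of blastomeres lacking a block was 5.68 ± 21.7 in SCNT (SD, n = 22) and 50.8 ± 36 in IVF (SD, n = 20), a difference of -45.2 percentage points (two-sided permutation test, adjusted p = 0.00014). At least 1 such blastomere occurred in 16 of 20 IVF embryos and in 2 of 22 SCNT embryos. With the limit at 0.05 the difference was -16.8 percentage points (permutation test, adjusted p = 0.0211). With each blastomere thinned to 2000 block calls, which equalises the number of open calls but not the reads, it was -47.1. By title prefix the IVF percent was 56.1 ± 33.7 in 15286 (SD, n = 15) and 35 ± 41.8 in 15287 (SD, n = 5). The SCNT percent was 6.25 ± 22.8 in 15243 (SD, n = 20) and 0 in 15244 (n = 2). Differences between prefixes of a type were not tested.

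**Figure D2:**
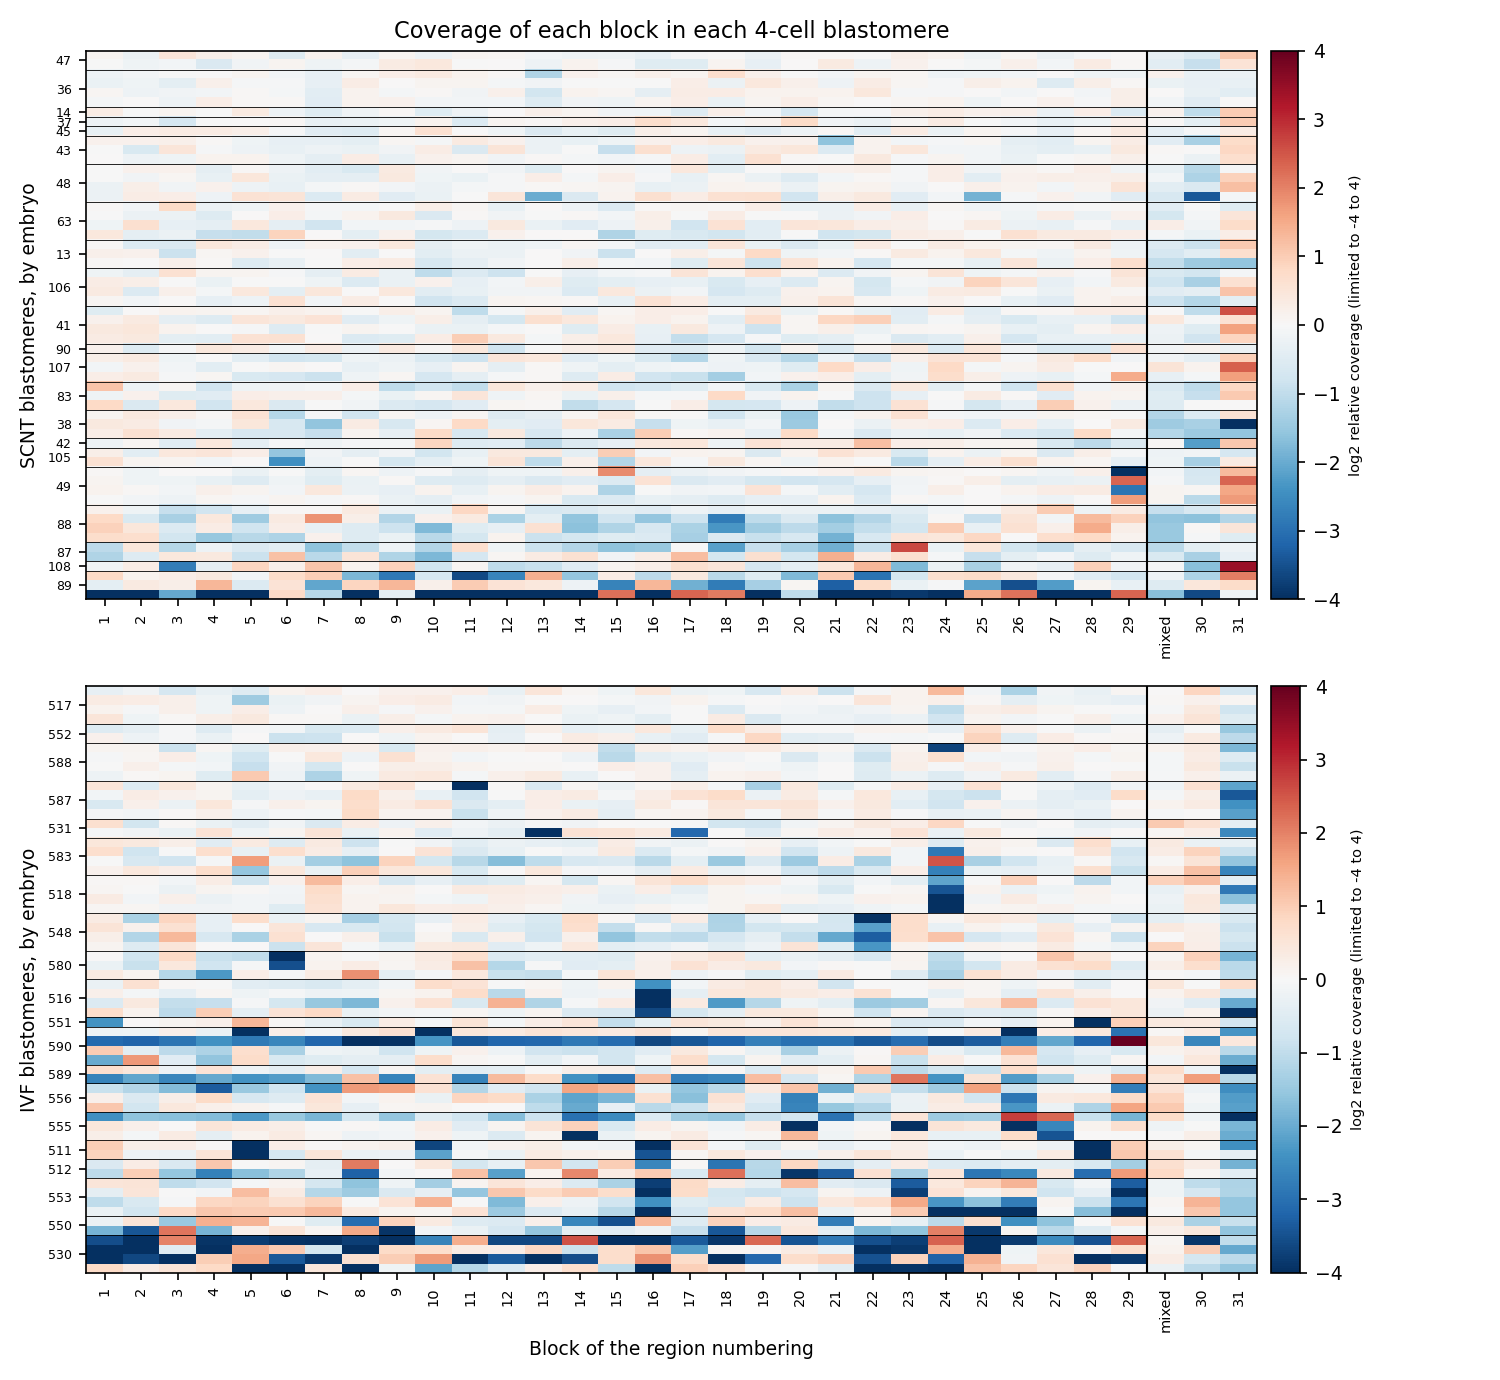
Relative coverage (log2, colour limited to -4 to 4) of each block of the region numbering in every 4-cell blastomere with enough calls, SCNT above and IVF below. Rows are blastomeres grouped by embryo and ordered by unevenness, and the vertical line ends block 29. Dark blue cells are blocks with almost no open calls: left of the line they lie in 30 of 62 IVF rows and 4 of 58 SCNT rows. In block 31, 40 of 58 SCNT rows and 3 of 62 IVF rows are above average.

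Of the 30 IVF blastomeres lacking a block, 15 lacked exactly 1 and 6 lacked 5 or more, the most being 20 of 29 in IVF-530A. Among the 4 SCNT blastomeres, 3 lacked exactly 1, and SCNT-89C lacked 18. The 2 SCNT embryos concerned were SCNT-49, with block 29 absent in 1 of 4 blastomeres, and SCNT-89, in which all 3 blastomeres analysed lacked a block. In IVF 28 of the 29 blocks were absent somewhere, all but block 19. Block 16 was absent most often, in 11 IVF blastomeres of 5 embryos, followed by block 24 in 7 blastomeres of 5 embryos and blocks 22 and 23 in 6 blastomeres of 3 embryos each. In SCNT no block was absent in more than 2 blastomeres.

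Some blocks were absent or low in every blastomere analysed of an IVF embryo. In IVF-511, which had only 2 blastomeres in the table, both lacked blocks 5, 16 and 28, with coverages of 0.0477 and 0.0539 in block 5. In IVF-530 all 4 lacked block 22. In IVF-516 block 16 had coverages of 0.187, 0.0515, 0.0297 and 0.0809 in its 4 blastomeres, so that 3 fell under the limit and the remaining one was low as well. IVF-518 had the same pattern in block 24, at 0.232, 0.0910, 0.0354 and 0.0616. IVF-548 had block 22 at 0.0650, 0.222, 0.102 and 0.201. Counted with a looser limit chosen after these values were seen, 10 absences in 6 IVF embryos came with every blastomere analysed under 0.25, and none of the 20 SCNT cases did. Of the 20 SCNT cases, 19 came from SCNT-89 and 1 from SCNT-49.

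Other absences were set against a sister with ample coverage. Of 66 cases in which a block was absent in some blastomere of an IVF embryo with at least 2 analysed, 51 had a sister above 1, in 8 embryos. IVF-530 gave 24 of these and IVF-590 gave 11, and without IVF-530 it was 27 of 41 cases. In IVF-553 block 23 had coverages of 0.0989 and 0.0743 in blastomeres A and B and of 2.84 and 2.03 in C and D. The same embryo showed the reverse in block 26, at 2.56 and 1.35 in A and B against 0.146 and 0.0567 in C and D. SCNT-49 had the clearest SCNT example: block 29 stood at 0.0541 and 0.131 in A and C and at 5.01 and 3.19 in B and D. In IVF-590 blastomere A, the one with 129163 calls, lacked blocks 5, 10 and 26, which stood between 0.897 and 2.48 in C and D. IVF-590B was unusual in that block 29 reached 24.6 while 8 other blocks were absent.

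Coverage varied more from block to block in IVF, absent blocks included. Of 1682 block values in SCNT blastomeres, 74.6% lay between 0.7 and 1.4, and of 1798 IVF values 59.1% did. Values between 0.1 and 0.35 made up 2.26% in SCNT and 6.79% in IVF, and values of 1.7 or more 3.57% and 6.51%. Unevenness, the SD of log2 coverage over blocks 1 to 29 averaged over an embryo's blastomeres, was 0.485 ± 0.309 in SCNT (SD, n = 22) and 0.874 ± 0.396 in IVF (SD, n = 20). The difference of -0.389 passed (permutation test, adjusted p = 0.00287). The lowest, median and highest SCNT embryos were at 0.217, 0.379 and 1.63, and the IVF ones at 0.321, 0.803 and 1.94. SCNT-89, SCNT-108 and SCNT-87 lay above the IVF median, and IVF-517 and IVF-552 lay below the SCNT median. Without SCNT-89, IVF-530 and blastomere IVF-590B, which stand apart, the differences were -0.382 in unevenness and -46.2 percentage points in blastomeres lacking a block, and both passed.

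The excess similarity of block patterns among sisters was not shown to differ between the types. Whether sisters were more alike than other embryos was not tested within a type, and the median excess was 0.033 in SCNT and 0.0305 in IVF. The correlation of block coverage between sisters exceeded that with other embryos of the same type by 0.0669 ± 0.205 in SCNT (SD, n = 16) and 0.115 ± 0.425 in IVF (SD, n = 19, permutation test, adjusted p = 0.794). In IVF the values ran from -0.570 in IVF-589 to 0.918 in IVF-511, the embryo with 3 shared absences, and in SCNT from -0.288 in SCNT-49 to 0.408 in SCNT-88. At 2 cells the excess was 0.116 ± 0.275 in SCNT (SD, n = 12) and -0.339 ± 0.385 in IVF (SD, n = 53). The type difference changed by -0.503 from 2 to 4 cells (permutation test, p = 0.0048), which did not pass when adjusted over 18 stage terms (adjusted p = 0.0864) and passed over 20 terms with the mixed segment added (adjusted p = 0.048).

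None of blocks 1 to 29 passed a test of mean coverage between the types, and the mixed segment, block 30 and block 31 did. Of the 32 blocks and segments tested, 3 passed an adjusted p of 0.05 (9.38%). Among blocks 1 to 29 the highest ratio of SCNT to IVF means was 1.31 in block 28 (permutation test, adjusted p = 0.161) and the lowest 0.800 in block 29 (adjusted p = 0.616). For block 29 the IVF mean was 1.47 ± 1.31 (SD, n = 20), and it includes IVF-590B at 24.6. A p that misses the threshold does not show that these means are alike.

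**Figure D3:**
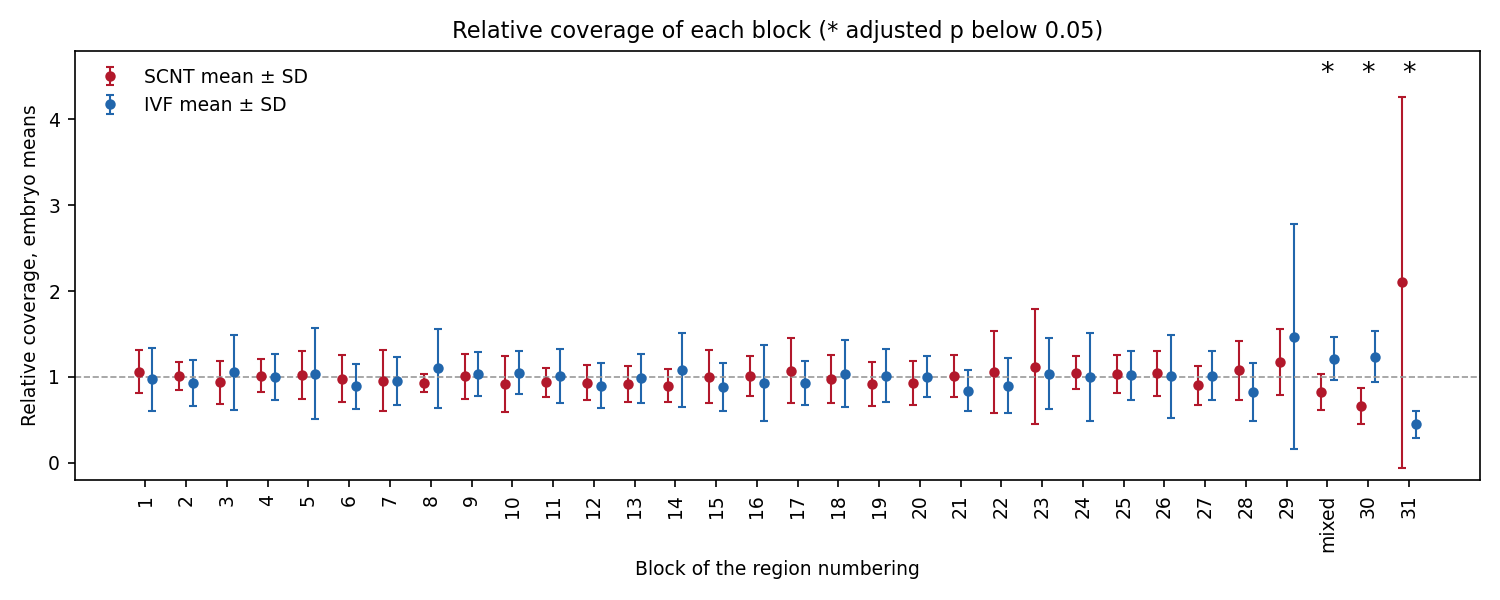
Relative coverage of each block, the mixed segment and blocks 30 and 31, as means of embryos with SD bars (22 SCNT and 20 IVF embryos); the dashed line is the average of 1 and asterisks mark adjusted p below 0.05. The SCNT mean is below the IVF mean in the mixed segment (0.822 and 1.21) and block 30 (0.659 and 1.23) and above it in block 31 (2.10 and 0.449), where the SCNT bar is wide.

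Block 30, of 4420 regions, had a mean coverage above 1 in IVF and below 1 in SCNT. SCNT embryos had a lowest value of 0.215 (SCNT-42), a median of 0.660 and a highest value of 1.07 (SCNT-90). IVF embryos had a lowest value of 0.786 (IVF-530), a median of 1.19 and a highest value of 2.04 (IVF-589). The groups overlapped little: 17 of 22 SCNT embryos lay below all IVF embryos, and 13 of 20 IVF embryos lay above all SCNT embryos. The means were 0.659 ± 0.209 in SCNT (SD, n = 22) and 1.23 ± 0.298 in IVF (SD, n = 20), a ratio of 0.534. The permutation p of 1e-05 was the smallest that the resamples could give (adjusted p = 0.000107). Of single blastomeres, 52 of 58 in SCNT and 20 of 62 in IVF were under 1.

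Block 31, of 400 regions, went the other way. SCNT embryos had a lowest value of 0.614 (SCNT-38), a median of 1.58 and a highest value of 11.1 (SCNT-108). IVF embryos had a lowest value of 0.178 (IVF-555), a median of 0.465 and a highest value of 0.744 (IVF-517). All SCNT embryos but SCNT-38, that is 21 of 22, lay above all 20 IVF embryos with a blastomere of enough calls. The embryos left out had few calls in block 31. Summed over blastomeres, IVF-513 stood at 7.38 on 3 calls and IVF-514 at 4.86 on 7. SCNT-46 stood at 1.55 on 2, SCNT-109 at 1.14 on 7 and SCNT-44 at 0 with no call. Some embryos kept had few as well, such as IVF-556 with 4 calls and SCNT-38 with 7. The means were 2.10 ± 2.16 in SCNT (SD, n = 22) and 0.449 ± 0.157 in IVF (SD, n = 20), a ratio of 4.68, with the same smallest permutation p of 1e-05 (adjusted p = 0.000107). SCNT-108 rested on 1 blastomere with enough calls, and without it the SCNT mean was 1.67 ± 0.827 (SD, n = 21) and the ratio 3.73. Blastomeres separated less cleanly than embryos, with 40 of 58 above 1 in SCNT and 3 of 62 in IVF.

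**Figure D4:**
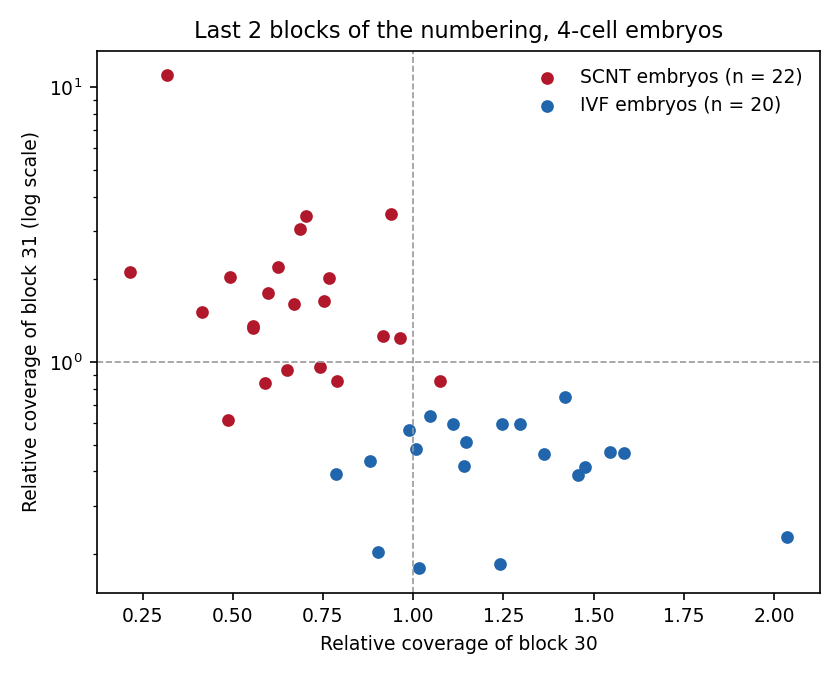
Relative coverage of block 30 against that of block 31 (log axis), 1 point per 4-cell embryo with enough calls, dashed lines at 1. On the vertical axis 21 of 22 SCNT embryos lie above all 20 IVF embryos, with SCNT-108 at 11.1, and on the horizontal axis 17 SCNT embryos lie below all IVF embryos.

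The 77 SCNT blastomeres made 978 calls there, over 314 of its 400 regions, and the 75 IVF blastomeres 365 calls over 100 regions. In every other block more regions were open in at least 1 IVF blastomere than in any SCNT blastomere. In block 31 240 regions were open in SCNT only and 26 in IVF only. Single regions went against the block: V302469, the region most often open in IVF, was called in 56 IVF and 58 SCNT blastomeres, V302623 in 16 and 2, and V302794 in 10 and 1. These were picked by their IVF calls and are given as a description. Of the 50 regions from V302531 to V302580, 48 were open in some SCNT blastomere and 6 in some IVF blastomere.

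For blocks 30 and 31 the 2 title prefixes of each type gave similar values. Block 31 stood at 2.14 ± 2.26 (SD, n = 20) and 1.69 ± 0.499 (SD, n = 2) in the SCNT prefixes, and at 0.449 ± 0.166 (SD, n = 15) and 0.449 ± 0.145 (SD, n = 5) in the IVF prefixes. Block 30 stood at 0.673 and 0.523 in the SCNT prefixes and at 1.23 and 1.26 in the IVF prefixes. Embryos of other stages took no part in these tests, but their blastomeres helped to set the block boundaries and the expected calls. Their values had the same order and are not separate evidence. At 2 cells block 31 was at 2.53 ± 2.02 in SCNT (SD, n = 30) and 0.490 ± 1.23 in IVF (SD, n = 65, highest embryo 10.2), and at 8 cells at 2.30 ± 0.907 (SD, n = 21) and 0.507 ± 0.393 (SD, n = 14). Block 30 was at 0.644 and 1.12 at 2 cells and at 0.717 and 1.18 at 8 cells. The type difference at 4 cells was not shown to differ from that at 2 or 8 cells for either block, the lowest adjusted p of these 4 permutation tests being 0.565.

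The mixed segment, of 23930 regions, held 17.5% of the SCNT and 17.7% of the IVF calls at 4 cells. Its coverage was 0.822 ± 0.210 in SCNT (SD, n = 22) and 1.21 ± 0.252 in IVF (SD, n = 20), a ratio of 0.679 (permutation test, adjusted p = 0.000107), with 10 SCNT embryos below all IVF embryos. The lowest, median and highest values were 0.394, 0.877 and 1.13 in SCNT and 0.822, 1.15 and 1.79 in IVF. The 3477 of its regions that are among the commonly open ones of the other stages had a ratio of 0.670, and the remaining 20453 regions one of 0.727. Depth moved with this result in IVF. IVF blastomeres under 5000 calls had a median of 1.38, those from 5000 to 15000 calls 1.17 and those above 0.963, while the SCNT medians were 0.738, 0.872 and 0.728. The IVF median was the higher one at each depth.

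Commonly open regions were not shown to take different shares of the calls in SCNT and IVF. They are the 5% of regions open most often at the other stages, and in 1000 calls drawn from each blastomere they made up 34.9 ± 6.18% in SCNT embryos (SD, n = 24) and 37.6 ± 8.91% in IVF embryos (SD, n = 21, permutation test, adjusted p = 0.330). The lowest SCNT value was 18.7% in SCNT-89, the uneven embryo, and the highest IVF value 62.8% in IVF-514, whose 2 blastomeres had a median of 1153 calls. With the top 20% of regions the difference was -4.36 percentage points and passed narrowly (permutation test, adjusted p = 0.0488).

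Sisters were not shown to share more open regions in one type than in the other. With 1000 calls per blastomere, the Jaccard index (regions open in both over regions open in either) was 0.0151 between SCNT sisters and 0.0115 between SCNT embryos, and 0.0173 and 0.0126 in IVF. The excess of sisters was 0.00368 ± 0.00652 in SCNT (SD, n = 21) and 0.00468 ± 0.0148 in IVF (SD, n = 20, permutation test, adjusted p = 0.866). Sisters exceeded other embryos of their type in 14 of 21 SCNT and 11 of 20 IVF embryos. Blastomeres of all 21 IVF embryos shared more with other IVF embryos than with SCNT embryos, and those of 18 of 24 SCNT embryos more with other SCNT embryos.

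Single regions were compared next, to ask which positions were open more often in one type. The test took the 91058 regions open in at least 10% of embryos and set their calls against those expected from each blastomere's total, over 24 SCNT and 21 IVF embryos with at least 1000 calls. It used a quasi-Poisson score test with dispersion moderated by limma, with the larger of its p and an exact binomial p, adjusted over all regions. It passed 1 region (0.0011% of those tested), higher in SCNT, and 0 lower in SCNT. At an unadjusted p under 0.05 there were 3480 regions (3.82%), 1752 of them higher in SCNT (1.92% of those tested) and the others lower (1.9%), against 11163 with limma on log2 ratios. The counts depended on the test: the score test alone passed 321, of which 70 were higher in SCNT, and limma on log2 ratios of observed to expected calls passed 423 higher and 888 lower.

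The region that passed was V302523, in block 31. It was open in 21 SCNT blastomeres of 16 of 24 embryos and in none of the 75 IVF blastomeres. With 7.15 calls expected in SCNT and 13.5 in IVF, the observed to expected ratio was 2.94 in SCNT, at least 13.2-fold higher than the ratio that 3 calls over the IVF group would give (adjusted p = 0.00106 by the limma-moderated test). It was also open in 31% of SCNT and 2.33% of IVF blastomeres at 2 cells, and in 26.9% of SCNT and 6.80% of IVF blastomeres at 8 cells. In tests of those embryos, run on the same regions, 0.022% of all regions passed at 2 cells and 1.65% at 8 cells. V302523 passed at 2 cells (adjusted p = 0.0018) and at 8 cells (adjusted p = 0.0163). At 4 cells it did not pass with complete embryos only (log2 ratio 6.12, adjusted p = 0.0600) or without blastomeres lacking a block (5.21, adjusted p = 1), with ratios close to the 6.29 over all embryos. It did not pass either with embryos thinned to 1292 calls (log2 ratio 1.5, adjusted p = 1). These fitted ratios rest on a group with no call and are no bounds.

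The next 3 regions with the lowest p of those higher in SCNT did not pass. V259856, in block 28, was open in 27.3% of SCNT and 5.33% of IVF blastomeres, with a log2 ratio of 3.10 ± 0.743 (SE, adjusted p = 0.136). V277560, in the mixed segment, was open in 24.7% and 2.67% (log2 ratio 3.80 ± 1.09, adjusted p = 0.255). V289567, also in the mixed segment, was open in 50.6% and 18.7% (log2 ratio 2.23 ± 0.480, adjusted p = 0.136). In the tests of other embryos V259856 and V277560 passed at both 2 and 8 cells, with adjusted p of 0.00455 or less in each, and V289567 passed at 8 cells only (adjusted p = 0.024). A pass was more common at 8 cells, with 1.65% of all regions tested, than at 2 cells, with 0.022%. With the filter raised to regions open in 25% of embryos, these 3 were among the 8 regions higher in SCNT that passed. That filter adjusts over 15091 regions and uses the same calls, so the passes are not separate evidence.

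The 4 regions with the lowest p of those lower in SCNT all lay in the mixed segment, and none passed. V292763 was open in 15.6% of SCNT and 77.3% of IVF blastomeres (log2 ratio -1.80 ± 0.292, adjusted p = 0.225). V276076 was open in 9.09% and 66.7% (log2 ratio -2.15 ± 0.334, adjusted p = 0.225). V277324 was open in 6.49% and 53.3% (log2 ratio -2.24 ± 0.577, adjusted p = 0.470). V282620 was open in none of 77 SCNT and in 26 of 75 IVF blastomeres (adjusted p = 0.274), at least 4.60-fold lower in SCNT by the limit of 3 calls over the group. These log2 ratios allow for the lower number of calls in SCNT, which the percentages do not. With the 25% filter V292763 and V276076 (adjusted p = 0.031 for both) and V282620 (adjusted p = 0.0455) passed, and all 4 passed with the score test alone and with limma on log2 ratios. These settings use the same calls by which the regions were chosen. The score test alone cannot give a larger p than the main test, and the 25% filter adjusts over fewer regions. Such passes are therefore not separate evidence. None of the 4 passed at 2 or 8 cells. V282620 was open in 2 of 40 SCNT embryos at 2 cells and in 10 of 21 at 8 cells. It reached the 10% filter only with IVF embryos, which favours a lower value in SCNT.

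**Figure D5:**
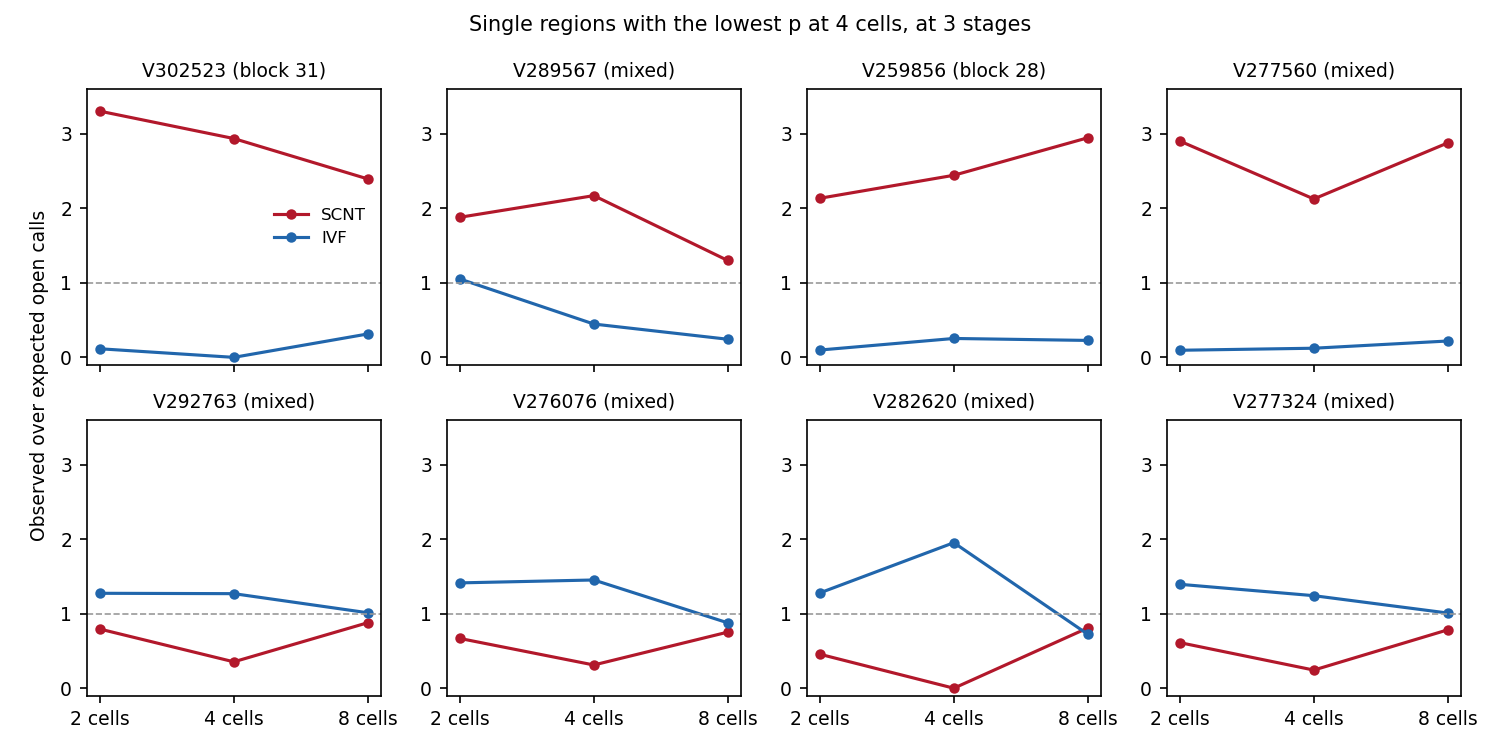
Observed over expected open calls of the 8 regions named here in SCNT and IVF embryos of 2, 4 and 8 cells, dashed line at 1. Lines join different embryos of successive stages, not the same embryos. The upper row shows regions higher in SCNT at 4 cells, of which V302523 passed at 4 cells, and the lower row regions lower in SCNT, none of which passed. All were chosen by their p at 4 cells.

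Regions with a low p were unevenly placed. In the mixed segment 12.2% of 10116 tested regions had an unadjusted p under 0.05, against 3.82% of all regions, and 83.9% of these were lower in SCNT. In block 31 it was 26 of 55 tested regions, all higher in SCNT, and in block 30 it was 9 higher and 57 lower of 1386. The median log2 ratio was 1.47 in block 31, -0.81 in block 30 and -0.35 in the mixed segment, and -0.13 over all regions. These values share their calls with the block coverages above and are not separate evidence for them. The filter that chose the tested regions counted embryos of both types, including those compared here. Of the 400 regions in block 31, 240 were open in SCNT blastomeres only and 26 in IVF blastomeres only. Regions there could therefore reach the filter mostly through SCNT calls, which favours higher values in SCNT. How far this set the direction and the median in block 31 was not tested.

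The type differences in absent blocks and unevenness had the same direction at the stages before and after. At 2 cells the percent of blastomeres lacking a block was 3.33 in SCNT (n = 30) and 56.2 in IVF (n = 65), and at 8 cells 0 in SCNT (n = 21) and 25.6 in IVF (n = 14). The difference at 4 cells was not shown to differ from that at 2 cells (permutation test, adjusted p = 0.725) or 8 cells (adjusted p = 0.508). Unevenness was 0.610 and 1.16 at 2 cells and 0.360 and 0.556 at 8 cells (adjusted p = 0.565 for both changes). Open calls differed by -0.457 on the log10 scale at 2 cells and -0.310 at 8 cells, against -0.221 at 4 cells (adjusted p = 0.446 and 0.725). All IVF libraries labelled 8-cell have the prefix 15287, so changes from 4 to 8 cells in IVF are mixed with prefix. Within that prefix the IVF values at 4 cells were 35 ± 41.8 percent lacking a block and 0.814 ± 0.406 in unevenness (SD, n = 5).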

How the data were processed

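The deposited table holds 302830 regions by 819 blastomeres, and every value deposited by the authors is 0 or 1, read here as a closed or open call. The tools listed in the submitters' processing notes are bedtools, Bowtie2 (2.2.6) and FastQC (0.10.1); for the genome build and the rule behind a call the entry is: not given in the sources used here. Per the labels' protocols, embryos were dissociated with embryo identity kept, and 2 to 2.5 uL of Tn5 was added by batch. The labels do not say which embryos were handled together.

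Columns were matched to titles by number, with offsets of 0, 499, 1000 and 1500 for the 4 prefixes. IVF-551D, whose number otherwise marks a 3-cell embryo, counted as a separate embryo. The members were 152 of the 819 blastomeres. The chance of a call was set to 1 - exp(-ab), with a for the blastomere and b for the region, fitted in 12 iterations to 600 blastomeres of 192 embryos of 2, 4 and 8 cells. Embryo measures were compared by two-sided permutation tests (100000 resamples), adjusted by Benjamini-Hochberg over 7 measures or 32 blocks and segments. Regions were tested with limma 3.58.1 in R 4.3.3, with a pseudocount of 0.5 in log2 ratios. Changes of a type difference between stages were tested with 10000 resamples. The permutation and stage tests were tried on independent normal values, and the main region test on calls drawn from the fitted model. These simulations held no lost blocks and no dependence among sisters. The score test alone and limma on log2 ratios were not tried on simulated calls. Named regions were those past an adjusted p of 0.05, or the 4 with the lowest p in a direction where fewer than 4 passed. The members and measures were chosen with earlier results of these data known.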

Additional observations from a re-analysis of the deposited data

Results flagged for a closer look

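The type difference in coverage of the mixed segment changed between 4 and 8 cells. It was -0.388 at 4 cells (0.822 in SCNT and 1.21 in IVF) and 0.137 at 8 cells (1.17 ± 0.548 in SCNT, SD, n = 21, and 1.03 ± 0.279 in IVF, SD, n = 14), a change of -0.525 (permutation test of the stage term, p = 0.0007, adjusted p = 0.014 over 20 terms). This test was added after the coverages had been seen. All IVF libraries labelled 8-cell have the prefix 15287, which holds 5 of the 20 IVF embryos analysed at 4 cells. Within that prefix the IVF coverage was 1.13 ± 0.255 (SD, n = 5) at 4 cells and 1.03 ± 0.279 (SD, n = 14) at 8 cells, a difference that was not tested. Over the same 20 terms the change in sister correlation between 2 and 4 cells also passed (-0.503, permutation test, adjusted p = 0.048). Over the 18 terms without the mixed segment it did not pass (adjusted p = 0.0864). That pass therefore depends on the terms added after the coverages had been seen.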

How the results depend on the processing

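Of 94 alternative values of the main results, 85 kept their direction and their side of the threshold (for counts, stayed within 1.5 times), as did 63 of 88 for the named regions. The difference in blastomeres lacking a block ran from -51.9 to -16.8 percentage points, unevenness from -0.449 to -0.353, and block 31 from 1.33 to 2.06, all past the threshold. The small difference in sharing among sisters, which did not pass, changed sign with complete embryos (0.000473) and with 2000 calls each (0.000587). The share of commonly open regions passed with the top 20% of regions (-4.36). The count of regions passing was 1311 with limma on log2 ratios, 321 with the score test alone, 11 with the 25% filter, and 0 with complete embryos, without blastomeres lacking a block, and with thinned embryos; the cause was not tested. Thinning turned V289567 to -0.26 and V277560 to -1.70, neither of which passed. Leaving out SCNT-89, IVF-530 and IVF-590B, and summing calls over blastomeres, were chosen after seeing the data. Leaving out blastomeres that lack a block could only remove blastomeres with enough calls to be assessed, so for open calls per blastomere that alternative says nothing about stability. No paired analysis was possible because the groups share no embryo numbers. Depth in reads is unknown, and few calls per region limit what single regions can show.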
